A study of Mus musculus with 6 samples.

Results

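The endothelial cells of the NG2 line are the sorted cortical cells that the study placed in cluster 5 of its integrated NG2 data, 958 of the 10455 NG2 cells and of 17033 cells in the whole series. They were taken by cluster number alone. The naïve library gave 101 of them, the physical injury library 404 and the ischemic injury library 453. All 3 libraries came from NG2-Cre-ERT2/Ai14-flx mice aged 3 to 4 months, in which tamoxifen turns on the red reporter tdT in cells that use the Cspg4 (NG2) promoter, and in their descendants. Tamoxifen was given 7 days before injury, and naïve mice received it equally long before collection. Ischemic injury was made by injecting ET-1/L-NAME, which constricts vessels, into the cortex; physical injury was an injection of saline, and naïve mice had no injection. Cortices were taken 3 days after injury, dissociated, and tdT+/DAPI- live cells of several animals were pooled into 1 droplet library per condition. There is thus no replicate and no test between conditions was made. The 95% intervals below describe counting alone and say nothing of how animals, sorts or injections vary. Cre and reporter were the same in all 3 libraries, so there is no unlabelled control.

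Endothelial cells line the blood vessels. In the brain they form a barrier with tight junctions and selective transporters, and they are ordered along the vessel tree into arterial, capillary and venous cells. After injury they can bind leukocytes through adhesion molecules, and in growing vessels the cells at the tip of a sprout turn on their own set of genes. NG2 is best known as a protein of the neighbouring pericytes and of oligodendrocyte precursors, and tamoxifen marks whatever cell used its promoter at that time.

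The cells carried the identity their label gives. Cldn5, the main claudin of the barrier's tight junctions, had a UMI (a counted RNA molecule) in 100% of the naïve library's cells and in 99.5% and 99.8% of those after physical and ischemic injury, against 0.184%, 1.26% and 0.647% of the pericytes in cluster 1 of the same libraries. At least 3 of the 6 markers Cldn5, Ly6c1, Adgrl4, Abcb1a, Slco1a4 and Ptprb were found in 101 of 101, 403 of 404 and 449 of 453 cells. Since clusters were formed on expression, this describes the cluster and is not independent evidence. The summed depth was 637866 UMIs in naïve, 3690878 in physical injury and 4742343 in ischemic injury cells, with medians of 5720, 7522.5 and 8622 UMIs per cell. A count of 3 UMIs, used as the floor, equals 4.7 CPM (a gene's UMIs relative to all UMIs of these cells) in the naïve library, 0.813 CPM after physical injury and 0.633 CPM after ischemic injury, so low genes are least certain in the naïve cells. Between libraries of the line, 2 to 5 cell barcodes were shared, and among endothelial cells 1 barcode was shared, by the naïve and ischemic injury libraries. In a separate clustering of the naïve cells by the authors, 68 of the 101 fell in 1 cluster (10) and 33 in another (13).

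Of all sorted cells, endothelial cells were 2.35% in the naïve library (95% exact Clopper-Pearson interval 1.91% to 2.84%). They were 15.8% (14.4% to 17.2%) after physical and 12.6% (11.6% to 13.8%) after ischemic injury. The difference between the injuries depended on what the cells were counted against. Among endothelial and mural (pericyte and smooth muscle) clusters alone, the shares were 2.48%, 21.8% and 21.6%, and the ischemic minus physical difference was -0.175 percentage points (-2.79 to 2.43) where it had been -3.13 points (-4.95 to -1.34) over all sorted cells. A share of sorted cells does not separate more endothelial cells from fewer of the other sorted cells.

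Markers of mural cells took over 0.5% of UMIs in a minority of the cells. A UMI of the pericyte marker Rgs5 alone was found in 76.2%, 66.3% and 53.9% of naïve, physical injury and ischemic injury cells. Vtn (vitronectin), a pericyte marker in the brain, was at 1593 CPM in naïve, 1342 CPM in physical injury and 1144 CPM in ischemic injury endothelial cells, against 22685, 22918 and 21521 CPM in the pericytes of cluster 1. The 8 pericyte markers together came to 5475 CPM (exact Poisson interval 5294 to 5659), 3726 CPM (3664 to 3789) and 3312 CPM (3260 to 3364), with Rgs5 the most abundant. The 6 smooth muscle markers came to 484, 86.2 and 205 CPM, with Acta2 at 210, 38.5 and 80.8 CPM. Both lists were therefore highest in the naïve library. Cells with over 0.5% of their UMIs from the 2 lists were 32 of 101 (31.7%), 81 of 404 (20%) and 80 of 453 (17.7%) in the 3 libraries, and cells over 1% were 16.8%, 12.6% and 11.9%. The median pericyte of cluster 1 had about 4% (4.06%, 4.01% and 4.05%).

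The driver gene of the line followed these cells. Cspg4 itself was at 86.2 CPM in naïve, 53.1 CPM in physical injury and 54 CPM in ischemic injury endothelial cells. Of the 193 cells over 0.5% mural UMIs, 113 had a Cspg4 UMI, and of the 765 other cells 17 had one. In those others Cspg4 was at 2.49 CPM (1 count, 0.0631 to 13.9), 2.45 CPM (0.983 to 5.04) and 5.25 CPM (3.21 to 8.12), against 769, 675 and 744 CPM in pericytes of cluster 1. The driver transcript was thus near 0 in most of these cells at the time of sorting. The cells over 0.5%, called the cells with mural UMIs below, were deeper, with medians of 6976, 10670 and 10425 UMIs against 5627, 7176 and 8215. Endothelial markers took a smaller part of their UMIs (median 1.13%, 0.993% and 0.965% against 1.52%, 1.53% and 1.52%). Neither the labels nor the methods mention doublets, and whether the mural RNA comes from a second cell in the droplet was not tested. The counts of the tip cell and arterial lists are given below with and without the cells over 0.5%. Leaving them out does not remove all mural RNA. In the other cells the pericyte markers together were still at 1376, 918 and 708 CPM in the naïve, physical injury and ischemic injury libraries.

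**Figure D1:**
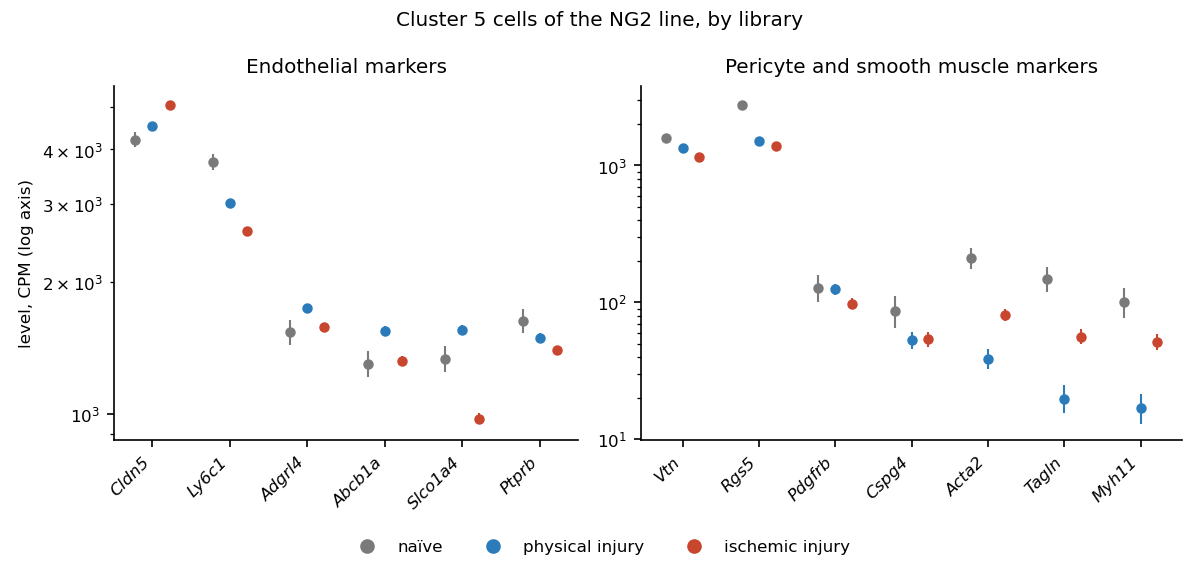
Level in CPM (log axis) of the 6 endothelial markers (left) and of 7 pericyte and smooth muscle markers (right) in cluster 5 cells of each NG2 library; bars are exact 95% Poisson intervals. Cldn5 stood at 4212, 4520 and 5062 CPM, and Acta2 was highest in the naïve library, at 210 CPM.

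Other cells left little. Markers of microglia summed to 1.57, 10.3 and 19.2 CPM (naïve, physical and ischemic injury), those of fibroblasts to 9.41, 14.1 and 11 CPM, and those of OPCs (oligodendrocyte precursors) to 9.41, 26 and 42.4 CPM. The oligodendrocyte list stood at 129, 81.8 and 193 CPM. The astrocyte list was nearly all Gja1, a gap junction gene that endothelial cells also use, and the neuron list nearly all Stmn2, which is taken up below with the arterial genes. Hemoglobin was different: the erythrocyte list reached 702, 8837 and 10331 CPM, but 1, 6 and 7 cells with over 1% hemoglobin UMIs held 92.4%, 99.8% and 99.7% of it, and 99, 374 and 429 cells had no hemoglobin UMI at all. Without those 14 cells the list was at 53.8, 18.6 and 26.6 CPM.

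Genes with at least 50 CPM mostly stayed within 2-fold between libraries. They were 18.3%, 18.1% and 17.6% of the 22833 genes in the table for the 3 pairs, and genes below that level were not compared. Among the 4188 genes with at least 50 CPM in either library of the pair, 69 (1.65%) were at least 2-fold higher after physical injury than in naïve cells and 36 (0.86%) at least 2-fold lower, on the scale of log2(CPM + 1), which understates the change of low genes. For ischemic injury against naïve, 89 (2.15%) of 4142 genes were higher and 65 (1.57%) lower. Between the injuries, whose depths are close, 27 (0.671%) of 4023 genes were higher after ischemic injury and 25 (0.621%) lower. The median gene differed by -0.03, -0.04 and -0.02 on the log2 scale. These are counts of genes past a fold between single libraries, not of changed genes, and both injury comparisons share the naïve library. A gene could enter through a single library, and then only as higher there. Counts in the lists below rest in part on such genes, and the shares of all compared genes passed the same filter.

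Genes of sprouting vessels were among those that differed between the injuries. Of the 18 genes of the tip cell and angiogenic list, 10 reached 50 CPM. Of these, 5 were at least 2-fold higher after ischemic than after physical injury and 0 lower, with a median log2 ratio of 1.12 (0.671% of all compared genes were higher). Of the 5, Apln, Angpt2, Pgf and Trp53i11 reached 50 CPM in the ischemic library alone. The count and the median thus rest on genes admitted where they were high, and no conclusion is drawn from them. Against naïve cells the count was 6 of 10 after ischemic injury (median 1.18, background 2.15%), and 1 of 6 compared genes after physical injury (median 0.09, background 1.65%). All 6 genes of the ischemic count were below 50 CPM in naïve cells. The same filter left Apln, Angpt2, Pgf and Trp53i11 out of the physical comparison. The counts and medians of the injuries are thus over different genes and are not compared. Without the cells with mural UMIs the ischemic counts were 6 of 10 against physical injury and 7 of 10 against naïve, and as a mean over cells 3 of 7 (median 0.47) and 4 of 7 (1.82). In both settings the numbers of all genes higher stayed within 1.5 times those given above. Apln encodes apelin, a ligand made by tip cells. It was at 36.1 CPM (22.9 to 54.1) in naïve cells, all of it from 1 cell with 23 UMIs, at 24.1 CPM (19.4 to 29.7) after physical injury and at 126 CPM (116 to 137) after ischemic injury. Its ischemic against physical log2 ratio was 2.34, and the number of cells with an Apln UMI was 1 of 101, 11 of 404 and 54 of 453. The cell with the most Apln held 28 of its 89 UMIs after physical injury and 92 of its 599 UMIs after ischemic injury. With every cell thinned to 2000 UMIs, Apln was found in 1.05% (0.0266% to 5.73%), 2.04% (0.883% to 3.97%) and 5.19% (3.32% to 7.69%) of cells. The ischemic interval overlaps both others. Among pericytes of cluster 1 Apln was found in 0 of 919, 284 and 217. Angpt2, an antagonist ligand of the Tie2 receptor that loosens vessels, stood at 26.7, 16.3 and 58.8 CPM (naïve, physical and ischemic injury), with 52.9% of the naïve UMIs in 1 cell. At 2000 UMIs it was found in 1.05% (0.0266% to 5.73%), 3.05% (1.59% to 5.27%) and 7% (4.8% to 9.79%) of cells, and the ischemic interval overlaps both others. Pgf, a growth factor of the VEGF family, stood at 3.14, 4.88 and 69.8 CPM, with 29.3% of the ischemic UMIs in 1 cell. At 2000 UMIs per cell Pgf was found in 3.84% (2.25% to 6.07%) of ischemic endothelial cells and in 4.61% (2.23% to 8.31%) of cluster 1 pericytes of the same library.

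Other members were also highest after ischemic injury. Trp53i11, a gene named for its induction by p53, was at 14.1 CPM (6.45 to 26.8), 32.2 CPM (26.7 to 38.6) and 142 CPM (132 to 153). Igfbp3, which binds insulin-like growth factors, was at 20.4, 67.5 and 174 CPM, and was the 1 member with at least 50 CPM that passed the fold after physical injury. Adm, the peptide adrenomedullin, was at 34.5, 60.1 and 82.7 CPM. In contrast, the VEGF receptor genes Kdr (553, 496 and 475 CPM) and Flt1 (4528, 5170 and 4026 CPM) and the progenitor marker Cd34 (513, 477 and 569 CPM) stayed within the fold. Esm1, often used to mark tip cells, had 0, 0 and 1 counts, and Plvap, a gene of leaky fenestrated vessels, was at 0 counts, 0.542 CPM (2 counts) and 2.95 CPM. Apln, Angpt2, Pgf and Adm were thus highest after ischemic injury while Kdr and Flt1 stayed within the fold, and Esm1 was below the floor. Of the VEGF and angiopoietin list, 2 of 10 compared genes (Pgf and Angpt2) were higher after ischemic injury than in naïve cells. The ligand gene Vegfc was lower, and the median log2 ratio was -0.19 (background 2.15% higher and 1.57% lower).

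Genes outside the list were also higher. The largest ischemic against physical log2 ratios were ranked among genes with at least 50 CPM in the higher library and found in at least 10% of its cells. They were those of Fabp7 (3.52), AA467197 (3.25), Apln (2.34), S100a6 (2.20), Trp53i11 (2.11), Angpt2 (1.79), Lgals1 (1.79), Tubb6 (1.64), Pdlim1 (1.59) and Igfbp3 (1.35). AA467197 encodes a small mitochondrial protein; it had 0 counts in naïve cells, 8.13 CPM after physical injury and 85.6 CPM (77.5 to 94.4) after ischemic injury, at least 18-fold above the naïve floor. S100a6, a calcium-binding protein, was at 47, 71.8 and 334 CPM (ischemic against naïve log2 ratio 2.80, and 3.79 without the cells with mural UMIs), and Tubb6, a tubulin, at 11, 27.4 and 87.5 CPM. The cytoskeleton and motility list had 4 of 20 compared members past the fold after ischemic injury against naïve (background 2.15%). After physical injury it had 0 of 19 (1.65%). Of the 4, S100a6 and Tubb6 were below 50 CPM in naïve cells and entered through the ischemic library. Tubb6 was below 50 CPM after physical injury too and was not compared there. The counts of the injuries are thus over different genes and are not compared. Vim, an intermediate filament gene, was at 1386, 1560 and 2690 CPM.

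Fabp7, the first of these genes, is a fatty acid-binding protein of radial glia and astrocytes. It was at 1.57 CPM (1 count), 3.52 CPM and 50.8 CPM, but 49.4% of its ischemic UMIs came from 1 cell. At 2000 UMIs per cell it was found in 5.64% of endothelial cells and 8.29% of cluster 1 pericytes after ischemic injury (medians of 8622 and 2984 UMIs before thinning), and in 22.1% and 16.8% before thinning. Cluster 7 of that library was at 3157 CPM, and the part of RNA from other cells in the endothelial level was not tested. Spp1, a secreted glycoprotein of microglia, was likewise at 11, 15.2 and 77.8 CPM with 81.3% of the ischemic UMIs in 1 cell.

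**Figure D2:**
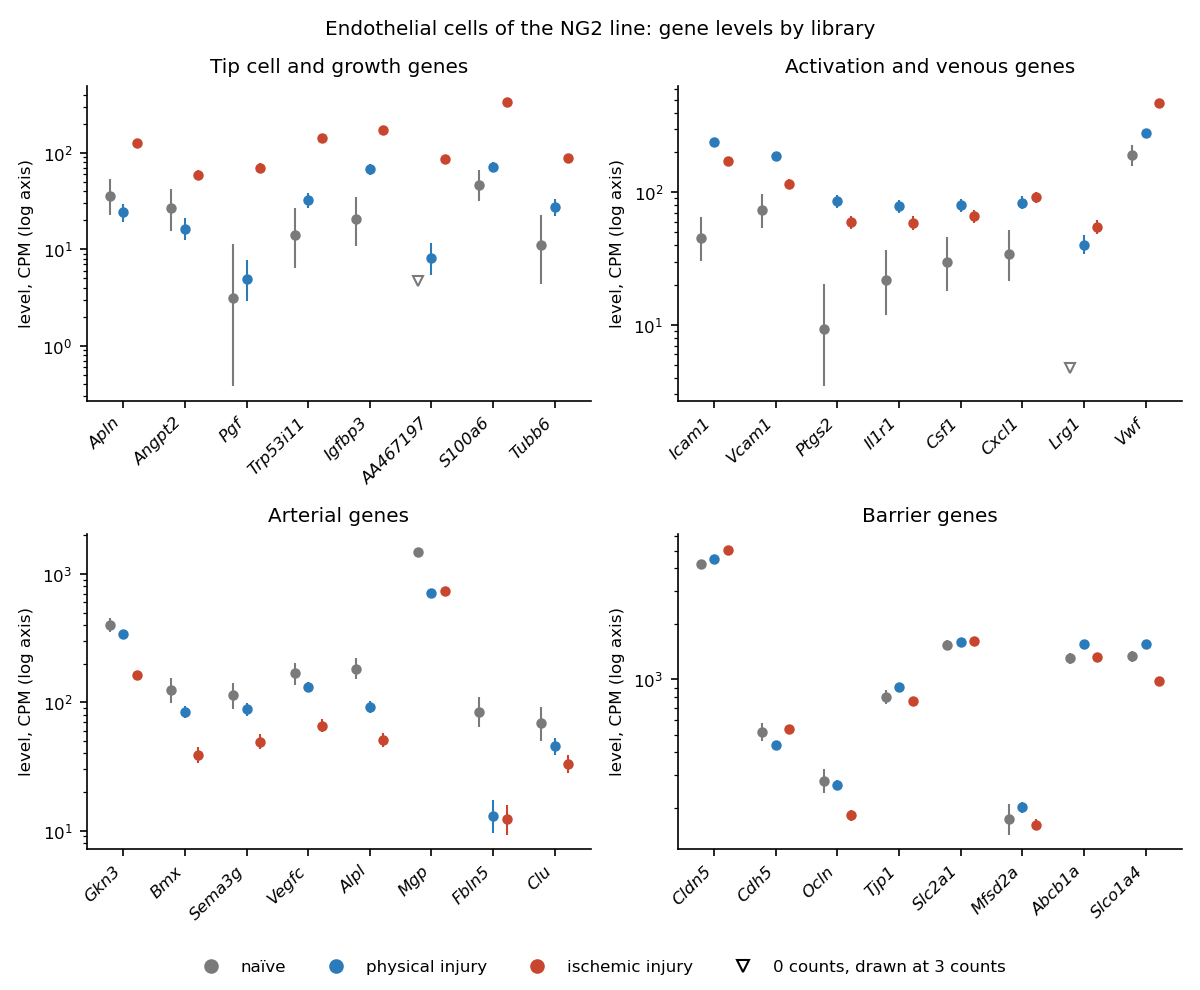
Level in CPM (log axis) of genes of 4 groups in endothelial cells of the NG2 line, by library; bars are exact 95% Poisson intervals and open triangles are 0 counts, drawn at the floor of 3 counts. The ischemic injury library is highest for all 8 genes of the first panel (Apln 126 CPM), both injuries are above naïve for all 8 of the second, and the ischemic library lies below naïve for all 8 arterial genes.

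Several of these genes were found in the same cells. After ischemic injury, the 54 cells with an Apln UMI were compared with the 399 without, a split made after these values were seen and described without a test. The 54 were deeper (median 14423 against 8058 UMIs), so every cell was thinned to 2000 UMIs, which left out 10 cells. At that depth Trp53i11 was found in 57.4% (43.2% to 70.8%) of cells with Apln and 4.63% (2.77% to 7.21%) of those without. AA467197 and S100a6, which are outside the list, were found in 38.9% and 2.31% and in 48.1% and 7.46% of cells. Pgf was found in 24.1% and 1.03%, and Angpt2 in 24.1% and 4.63%. For each of these 5 genes the intervals of the cells with and without Apln did not overlap. Not all members of the list did so at that depth: Flt4 was found in 14.8% and 14.7%, and Mcam in 16.7% (7.92% to 29.3%) and 5.66% (3.58% to 8.44%), and Esm1 was found in 0 of the 54. At full depth Trp53i11 was found in 87% and 15% of them, and AA467197 in 61.1% and 6.02%. Col4a1, a collagen of the vessel's basement membrane, was found in 98.1% (90.1% to 100%) of cells with Apln and 65.0% (60.1% to 69.8%) of the others.

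Shares of genes of other endothelial states in the same cells are given as values, with no test. The arterial genes Bmx and Gkn3 were found in 0 of 54 cells each at 2000 UMIs (upper limit 6.6%), against 7.20% (4.84% to 10.2%) and 12.3% (9.24% to 16.0%) of the other cells; for Bmx the intervals overlap. Mfsd2a, the omega-3 lipid transporter of barrier capillaries, was found in 9.26% (3.08% to 20.3%) against 33.4% (28.7% to 38.3%), and the anion transporter Slco1a4 in 46.3% (32.6% to 60.4%) against 80.5% (76.2% to 84.3%). At full depth these 4 genes were found in 3.7%, 1.85%, 46.3% and 83.3% of cells with Apln and in 16.8%, 16.3%, 65.2% and 94% of the others, and the intervals overlap for Mfsd2a (32.6% to 60.4% and 60.3% to 69.8%) and for Slco1a4 (70.7% to 92.1% and 91.2% to 96.1%). Icam1 was found in 3.7% (0.452% to 12.7%) against 15.4% (12% to 19.4%) at 2000 UMIs, and in 29.6% of both at full depth, so no order is read from it. Cldn5 was found in 100% of both at 2000 UMIs. Vtn was found in 27.8% and 24.4% at that depth and in 50% and 35.6% at full depth. Without the cells with mural UMIs Apln was at 57.3, 30.4 and 145 CPM in naïve, physical injury and ischemic injury cells.

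**Figure D3:**
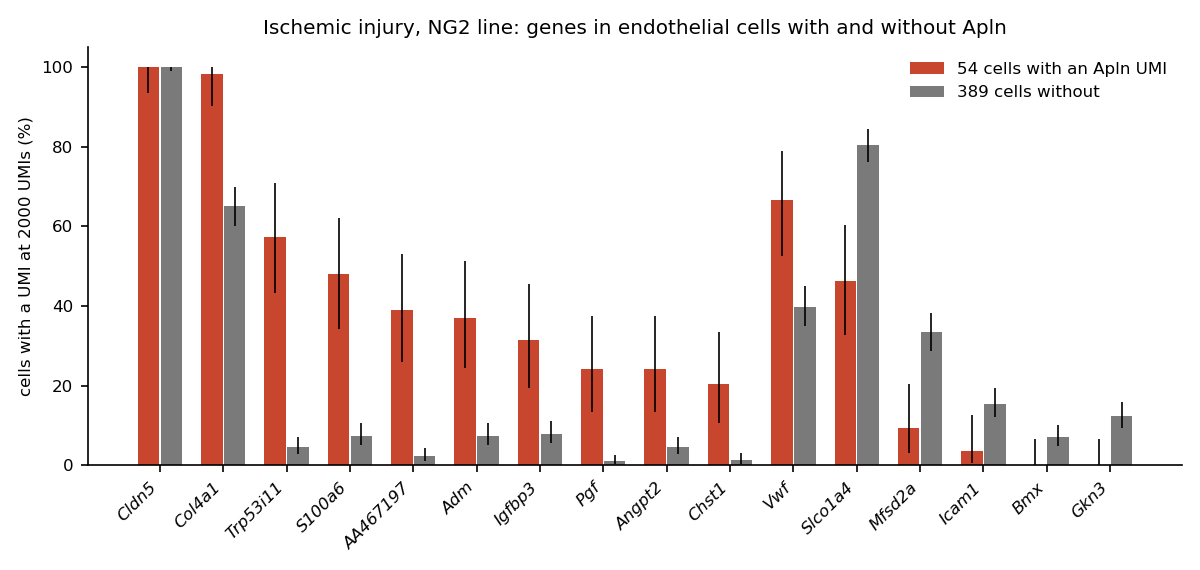
Share of endothelial cells (%) with a UMI of each gene after ischemic injury in the NG2 line, with every cell thinned to 2000 UMIs, for the 54 cells with an Apln UMI at full depth and the 389 without; bars are exact 95% Clopper-Pearson intervals. Trp53i11 stands at 57.4% against 4.63%, and Slco1a4 at 46.3% against 80.5%.

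Counted by cell, with Kdr and Cd34 left out because most cells have them, at least 2 genes of the tip cell list were found at 2000 UMIs in 5.26% (1.73% to 11.9%) of naïve, 8.65% (6.07% to 11.9%) of physical injury and 19.2% (15.6% to 23.2%) of ischemic injury endothelial cells. In pericytes of cluster 1 the same shares were 8.27%, 8.80% and 7.37%. The interval of the ischemic endothelial cells alone lay above that of the pericytes. Before thinning the endothelial shares were 23.8%, 42.8% and 56.7%. Leaving out these genes was an alternative chosen after seeing the data. With the whole list the shares at 2000 UMIs were 49.5%, 56% and 66.1% of endothelial cells and 9.36%, 10.2% and 8.29% of the pericytes.

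Several genes of endothelial activation were at least 2-fold higher after both injuries in summed counts. The activation and leukocyte adhesion list has 17 genes. Of 10 compared after physical injury, 6 were at least 2-fold higher than in naïve cells (median log2 ratio 1.19, background 1.65%). After ischemic injury 5 of 11 were higher (0.82, background 2.15%). In both comparisons 0 were lower, and 0 of 11 differed 2-fold between the injuries. All 5 genes of the ischemic count (Icam1, Lrg1, Il1r1, Csf1 and Ptgs2) were below the minimum level for comparison in naïve cells. Of the physical count, so were Icam1, Il1r1, Csf1 and Ptgs2, but not Vcam1 and Cebpd. The counts and medians against naïve thus rest largely on genes admitted where they were high, and no conclusion is drawn from them. As a mean over cells, 4 of 8 were higher after physical and 1 of 8 after ischemic injury. In that setting the numbers of all genes higher than naïve stayed within 1.5 times those given above. Icam1, the adhesion molecule on which leukocytes stop, was at 45.5 CPM (30.4 to 65.3) in naïve, 238 CPM (222 to 254) in physical injury and 174 CPM (162 to 186) in ischemic injury cells. Vcam1, the partner of another leukocyte integrin, was at 73.7, 187 and 116 CPM. Ptgs2, the inducible cyclooxygenase of prostaglandin synthesis, was at 9.41, 85.6 and 59.5 CPM, and had the a physical against naïve log2 ratio of 3.06. Its naïve level rests on 6 counts from 4 cells, and 1 cell held 28.8% of its physical injury UMIs. In summed levels the order for these 3 genes was naïve, ischemic injury, physical injury, with no overlap between the intervals. By cell the order was not the same for all 3. At 2000 UMIs Icam1 was found in 6.32%, 16.5% and 14% of naïve, physical and ischemic injury cells, Vcam1 in 9.47%, 10.4% and 7.9%, and Ptgs2 in 2.11%, 4.83% and 5.42%; before thinning the shares were 12.9%, 32.9% and 29.6%, 10.9%, 18.1% and 17.9%, and 3.96%, 12.9% and 12.1%. In cluster 1 pericytes each was found in at most 0.109% of cells at 2000 UMIs.

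The interleukin-1 receptor gene Il1r1 (21.9, 78.6 and 58.6 CPM), the macrophage growth factor gene Csf1 (29.8, 79.9 and 66 CPM) and the transcription factor gene Cebpd (152, 314 and 270 CPM) followed the same order, with overlapping intervals for Csf1 between the injuries. Lrg1, a secreted glycoprotein, had 0 counts in naïve cells and 40.4 and 55 CPM after the injuries, at least 8.6-fold and 12-fold above the naïve floor. The chemokine gene Cxcl1 was at 34.5, 83.4 and 91.7 CPM, and its physical against naïve log2 ratio of 1.25 became 0.23 with cells thinned to 2000 UMIs. Sele and Selp, the selectins on which leukocytes roll, were low throughout: Sele had 0 counts, 10.8 CPM and 5.48 CPM, and Selp 0 counts, 3.52 CPM and 12 CPM. The summed levels of Icam1 and Vcam1 were thus above naïve after a saline injection alone, and lower with ET-1/L-NAME than with saline. For Vcam1 the physical against naïve log2 ratio of 1.34 became 0.89 with cells thinned to 2000 UMIs. Its shares of cells at that depth (9.47%, 10.4% and 7.9%) did not keep the summed order.

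Windows of 100 bases upstream of the start of 3 of these genes are shown because each holds letters of the kind bound by NF-kB, the factor best known for driving adhesion and cytokine genes in endothelium. The capitals mark GGANTTTCC or its reverse complement GGAAANTCC. The sequences are RefSeq promoters of GRCm38.p6, given 5′ to 3′ on the gene's strand: Icam1 at chr9:21015741-21015840 (plus strand), Csf1 at chr3:107760570-107760669 (minus strand) and Cxcl1 at chr5:90891129-90891228 (plus strand).
Icam1: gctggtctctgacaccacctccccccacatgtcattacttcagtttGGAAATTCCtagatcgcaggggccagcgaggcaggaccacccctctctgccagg
Csf1: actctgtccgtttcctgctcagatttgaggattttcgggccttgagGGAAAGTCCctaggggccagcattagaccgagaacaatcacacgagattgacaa
Cxcl1: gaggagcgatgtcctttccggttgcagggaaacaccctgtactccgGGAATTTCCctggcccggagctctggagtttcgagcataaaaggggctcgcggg
Within 250 bases upstream, these letters on either strand were in 350 of 32851 RefSeq promoters (1.07%), in those of 2 of the 13 activation list genes with an entry (Csf1 and Icam1) and in those of 4 of 14 chemokine and cytokine genes (Cxcl1, Cxcl10, Cxcl2 and Il6). They were chosen from 12 strings of letters after the genes' values were known. A match is a description of the sequence and not evidence that a factor binds there.

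The venous list shares Icam1, Vcam1, Il1r1, Selp, Ackr1 and Lcn2 with the activation list. After physical injury 4 of its 8 compared members were at least 2-fold higher (among them Vcam1, Il1r1 and Icam1, median log2 ratio 0.96, background 1.65%). After ischemic injury 4 of 8 were higher (Vwf, Il1r1, Tmsb10 and Icam1, median 1.09, background 2.15%), and 0 were lower after either injury. In both counts Il1r1 and Icam1 were below the minimum level for comparison in naïve cells and entered through the injured library. Vwf, the clotting factor that captures platelets, was at 191 CPM (159 to 228), 282 CPM (265 to 299) and 475 CPM (455 to 495). It thus differed from Icam1 in being highest after ischemic injury. Tmsb10, a small actin-binding protein, was at 602, 1108 and 1467 CPM. Ackr1, a chemokine receptor of venules, had 0 counts, 23.8 CPM and 37.1 CPM, from 2.97% and 2.43% of injured cells.

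Several arterial genes were at least 2-fold lower after ischemic injury in summed counts. Of the 15 listed, 14 were compared; 8 were at least 2-fold lower than in naïve cells and 0 higher, with a median log2 ratio of -1.02 (background 1.57%). After physical injury 2 of 14 were lower (Mgp and Fbln5; median -0.41, background 0.86%), and between the injuries 3 of 12 were lower after ischemic injury (Gkn3, Bmx and Hey1; median -0.60, background 0.621%). Gkn3, a secreted protein of brain arteries, was at 398 CPM (351 to 450), 340 CPM (321 to 359) and 163 CPM (152 to 175). The kinase gene Bmx was at 124 CPM (98.1 to 154), 84.3 CPM (75.2 to 94.2) and 38.8 CPM (33.4 to 44.8), and the lymphatic growth factor gene Vegfc at 168, 132 and 65.8 CPM. In these 3 genes the physical injury level lay between the other two. Alpl, an alkaline phosphatase, was at 183, 91.3 and 50.6 CPM. Bmx and Hey1 (33.7 CPM) were below 50 CPM after ischemic injury, so between the injuries they could enter only as lower there. In the counts against naïve this held at least for Bmx after ischemic injury and for Fbln5 after both injuries. The counts and medians thus rest in part on genes admitted where they were high, and no conclusion is drawn from them.

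Part of the arterial pattern rests on few naïve cells. Mgp, an inhibitor of calcification, was at 1480, 714 and 732 CPM, with 29.8% of the naïve UMIs in 1 cell, and Fbln5, an elastic fibre protein, was at 84.7, 13 and 12.2 CPM, with 38.9% in 1 cell. Without the cells with mural UMIs Mgp was at 1705, 624 and 509 CPM, and its ischemic against naïve log2 ratio was -1.74 in place of -1.02, but -0.90 with TMM scaling and -0.83 as a mean over cells. Stmn2, known best from neurons, was at 345 CPM (301 to 394), 159 CPM (146 to 172) and 106 CPM (97 to 116) while the other neuron markers were at or near 0, and the largest naïve cell held 9.09% of it. Without the cells with mural UMIs, 8 of 13 arterial genes were at least 2-fold lower after ischemic injury than in naïve cells (median -1.48). Smooth muscle RNA was also highest in the naïve cells, at 484, 86.2 and 205 CPM, and beyond this comparison its part in the result was not tested. As a mean over cells, which gives each cell the same weight, 5 of 14 were lower (median -0.72) and 0 of 11 differed 2-fold between the injuries. Of all genes, 43 were lower after ischemic injury than in naïve cells in that setting. By cell, at least 2 arterial genes were found at 2000 UMIs in 45.3% (35.0% to 55.8%), 36.9% (32.1% to 41.9%) and 30.7% (26.4% to 35.2%) of endothelial cells, but also in 56.6%, 61.6% and 68.7% of pericytes of cluster 1, so this share is not specific to arteries and is given only as a value (62.4%, 67.1% and 67.5% of endothelial cells before thinning). Bmx alone, found in at most 0.352% of those pericytes, was in 16.8% (9.94% to 25.9%), 8.65% (6.07% to 11.9%) and 6.32% (4.24% to 9.01%) of endothelial cells, and in 23.8%, 20% and 15.2% before thinning. In a sum over cells, fewer arterial cells and less arterial RNA per cell cannot be told apart.

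**Figure D4:**
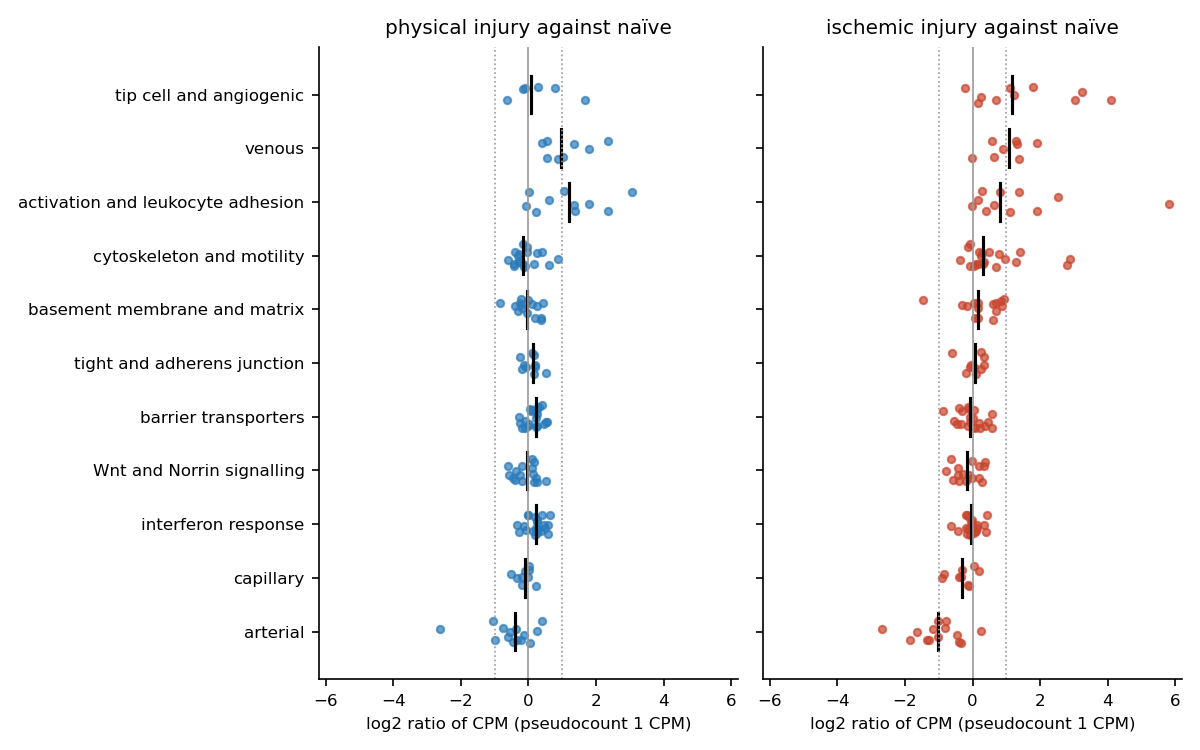
Members of 11 gene lists in endothelial cells of the NG2 line: log2 ratio of CPM (pseudocount 1 CPM) for physical injury (left) and ischemic injury (right) against naïve cells; each point is a gene with at least 50 CPM in either library, black bars are medians and dotted lines mark 2-fold. The arterial median is -0.41 on the left and -1.02 on the right. The tip cell median is 0.09 over 6 genes on the left and 1.18 over 10 on the right. Apln, Angpt2, Pgf and Trp53i11 are on the right alone because they reached 50 CPM only after ischemic injury.

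Of the tight and adherens junction list, 0 of 10 compared genes differed 2-fold in any of the 3 comparisons, with medians of 0.13, 0.07 and 0.13. Of all compared genes 1.65% were higher and 0.86% lower after physical injury and 2.15% and 1.57% after ischemic injury, so that in a list of this size a count of 0 is near the background and says nothing of these genes in particular. Cldn5 was at 4212, 4520 and 5062 CPM (naïve, physical and ischemic injury) and Cdh5, the cadherin of endothelial contacts, at 516, 437 and 534 CPM. Ocln, another tight junction protein, was at 281, 266 and 182 CPM, within the fold.

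Of 21 compared transporters, 0 passed the fold against naïve after either injury, which is again near the background. The glucose transporter gene Slc2a1 was at 1543, 1590 and 1615 CPM and the efflux pump gene Abcb1a at 1301, 1549 and 1321 CPM. Only Atp10a, a lipid flippase, differed 2-fold between the injuries (335, 477 and 228 CPM; log2 ratio -0.94 as a mean over cells). Slco1a4 was at 1336, 1557 and 977 CPM, and the taurine transporter gene Slc6a6 at 1977, 1613 and 1084 CPM. The capillary list had 0 of 9 genes past the fold; its most abundant member, Cxcl12, a chemokine, was at 2471, 1971 and 1314 CPM. The Wnt and Norrin list, the pathway that maintains the barrier, had 0 of 16, and the caveolae list 0 of 5. Against the shares of all compared genes given above for the junction list (1.65% and 0.86%, 2.15% and 1.57%; between the injuries 0.671% and 0.621%), counts of 0 in lists this short are near the background.

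Id1, a target of BMP signalling, was at least 2-fold lower after both injuries, after physical injury only just. It was at 2021 CPM (1912 to 2134), 1009 CPM (977 to 1042) and 786 CPM (761 to 812), with a log2 ratio of -1.36 after ischemic injury. After physical injury it was within the fold with TMM scaling (-0.94), as a mean over cells (-0.93) and thinned to 2000 UMIs (-0.90). Id3, another target, was at 1608, 994 and 880 CPM, within the fold. Klf2, which blood flow induces, was at 6214, 3797 and 3225 CPM. Smad1, a mediator of the same pathway, was 2-fold higher after ischemic injury (90.9, 121 and 192 CPM; log2 ratio 0.94 as a mean over cells), so that of 12 compared genes of the TGF-beta and BMP list 1 was lower after physical injury (background 0.86%) and 1 was past the fold in each direction after ischemic injury (2.15% higher and 1.57% lower). Jag1, a Notch ligand, was at 94.1, 55.8 and 53.1 CPM, and 0 of 7 and 0 of 8 Notch genes passed the fold against naïve after physical and ischemic injury, near the background. Edn1, which encodes endothelin-1, the injected peptide, was at 224, 243 and 199 CPM, and Nos3, the nitric oxide synthase that L-NAME inhibits, at 188, 191 and 182 CPM.

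In the basement membrane list 0 of 15 compared genes were 2-fold higher after ischemic injury and 1 was lower (background 2.15% and 1.57%), with a median log2 ratio of 0.17 beside -0.04 for all compared genes; Col4a1 was at 553, 598 and 994 CPM, Sparc at 1253, 1432 and 2269 CPM and Igfbp7 at 2601, 2604 and 4223 CPM. Timp3, an inhibitor of matrix proteases, was the member past the fold, at 1387, 767 and 498 CPM (log2 ratio -0.92 as a mean over cells). Of the hypoxia and glycolysis list, 1 of 18 genes (Adm) was higher after ischemic injury (background 2.15%) and 0 of 18 after physical injury (1.65%), both near the background; Ldha, lactate dehydrogenase, was at 303, 302 and 490 CPM and Hif1a, the oxygen-sensing factor, at 89.4, 124 and 166 CPM. Vegfa, the growth factor that hypoxia induces, was at 6.27, 4.88 and 4.43 CPM. Mt2, a metallothionein, was at 92.5, 95.4 and 211 CPM. Its ischemic against naïve log2 ratio of 1.18 was 0.23 thinned to 2000 UMIs, 0.77 as a mean over cells and 0.93 without the cells with mural UMIs. Abca1, a cholesterol exporter, was past the fold after both injuries (39.2, 97 and 85 CPM), and within it as a mean over cells (0.98 and 0.92). The interferon list had 0 of 22 and 0 of 21 genes past the fold after physical and ischemic injury, and MHC class I had 0 of 11 in both; no MHC class II gene reached 50 CPM. Of the immediate early genes, which dissociation itself can induce, 0 of 16 passed the fold, with Fos at 7925, 5935 and 6153 CPM. For the interferon, MHC class I and immediate early lists 0 is near the background (1.65% higher and 0.86% lower after physical injury, 2.15% and 1.57% after ischemic injury).

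The proliferation gene Mki67 had 0, 2 and 29 counts, from 0, 2 and 10 cells, and 1 ischemic cell held 65.5% of its counts. At least 2 genes of the mitosis list were found at 2000 UMIs in 0 of 95 naïve (up to 3.81%), 0.254% (0.00644% to 1.41%) of physical injury and 2.93% (1.57% to 4.97%) of ischemic injury endothelial cells, beside 1.2%, 1.41% and 4.61% of pericytes. Before thinning the endothelial shares were 4.95%, 7.67% and 22.1%. These shares rest on few cells and their order was not kept. Thinned to 1000 UMIs they were 0%, 0.748% and 0.446%, without the cells with mural UMIs, in another random draw, 3.08%, 0.633% and 2.47%, and with at least 3 genes required 0% in all 3 libraries, so no order is read from them. Of the 54 cells with Apln after ischemic injury, 3 had an Mki67 UMI at full depth.

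Several of the remaining genes named by the rule were not particular to endothelial cells. Cdk8, a kinase of the Mediator complex, was at 268, 897 and 1297 CPM in endothelial cells and at 182, 1056 and 2001 CPM in pericytes of cluster 1. Dbp, a target of the circadian clock, was at 122, 24.1 and 49.1 CPM here and at 443, 151 and 303 CPM in the pericytes, and Nr1d1, a repressor of the clock, at 149, 46.3 and 75.3 CPM and at 295, 109 and 154 CPM. The hour of collection is not given in the sources used here. Tagln, Myh11 and Acta2 led the genes lower after physical injury and Tpm2 was the seventh; all 4 are contractile genes of smooth muscle. Without the cells with mural UMIs the ratio of Myh11 was -1.21 in place of -2.51, and 66.2% of the Acta2 UMIs in physical injury cells came from 1 cell. Plaur, the receptor of urokinase, was at 23.5, 88.6 and 101 CPM, Scgb3a1, a secretoglobin, at 18.8, 75.9 and 123 CPM, Litaf, an endosomal protein, at 26.7, 84.8 and 154 CPM, and Dusp2, a phosphatase of MAP kinases, at 6.27, 37.9 and 70 CPM. Lower after ischemic injury were also Npnt (50.2, 22.2 and 11 CPM) and Fbln2 (144, 53.6 and 40.3 CPM), both matrix proteins, and between the injuries Xdh, xanthine dehydrogenase (113, 173 and 64.1 CPM).

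Endothelial cells of the Tbx18 line (Tbx18-CreERT2/Ai14-flx, cluster 0 of its own data, with 159, 1788 and 1488 cells) were set beside these, each contrast within its line. Their naïve cells were shallow (median 2600 UMIs) and 57.9% of them had over 0.5% mural UMIs, against 2.68% and 0.403% after the injuries, so the naïve contrasts of that line carry a change in mural RNA. Apln had 0 counts in naïve, 17.7 CPM in physical injury and 30.5 CPM in ischemic injury Tbx18 cells, where 126 CPM was found after ischemic injury in the NG2 line. At 2000 UMIs per cell, Apln was found in 1.81% (1.18% to 2.63%) of ischemic Tbx18 endothelial cells and 5.19% (3.32% to 7.69%) of the NG2 ones, and after physical injury in 1.18% (0.712% to 1.84%) and 2.04% (0.883% to 3.97%). Before thinning these shares were 4.5% and 11.9% after ischemic injury and 2.46% and 2.72% after physical injury.

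The ischemic against physical log2 ratio of Trp53i11 was 2.11 in the NG2 line and 1.94 in the Tbx18 line (14.1 and 56.6 CPM), and that of AA467197 was 3.25 and 1.65. For Pgf it was 3.59 and -0.82. Of the arterial list in Tbx18 cells, 0 of 11 compared genes passed the fold against naïve after physical injury (median log2 ratio -0.42; 4.28% of all compared genes were lower) and 0 of 12 after ischemic injury (-0.05; 4.06%). Bmx was at 94.4, 70.3 and 92.8 CPM and Gkn3 at 150, 220 and 280 CPM in Tbx18 cells. Of the activation list, 1 of 9 genes was higher after physical injury (Icam1; 0.813% of all compared genes) and 8 of 14 after ischemic injury (1.48%), among them Icam1, Vcam1 and Ptgs2. Of the tip cell list, 2 of 6 were higher after ischemic than after physical injury (Igfbp3 and Trp53i11; median log2 ratio 0.43, background 0.205%), and against naïve 0 of 3 after physical injury and 2 of 6 after ischemic injury (Adm and Trp53i11; 0.77). In that line too, Adm, Igfbp3 and Trp53i11 reached 50 CPM in the ischemic library alone. So did Lrg1 and Ptgs2 of the activation list's ischemic count, which also held Il1r1, Ackr1, Lcn2 and Ch25h. For both lists more genes were compared after ischemic than after physical injury. Their counts are thus over different genes, are not compared, and no conclusion is drawn from them. Icam1 was highest after ischemic injury in the Tbx18 line (71.5, 228 and 330 CPM) and after physical injury in the NG2 line. With 1 library of each kind, a difference between lines cannot be told apart from one between sorts, and none was tested.

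**Figure D5:**
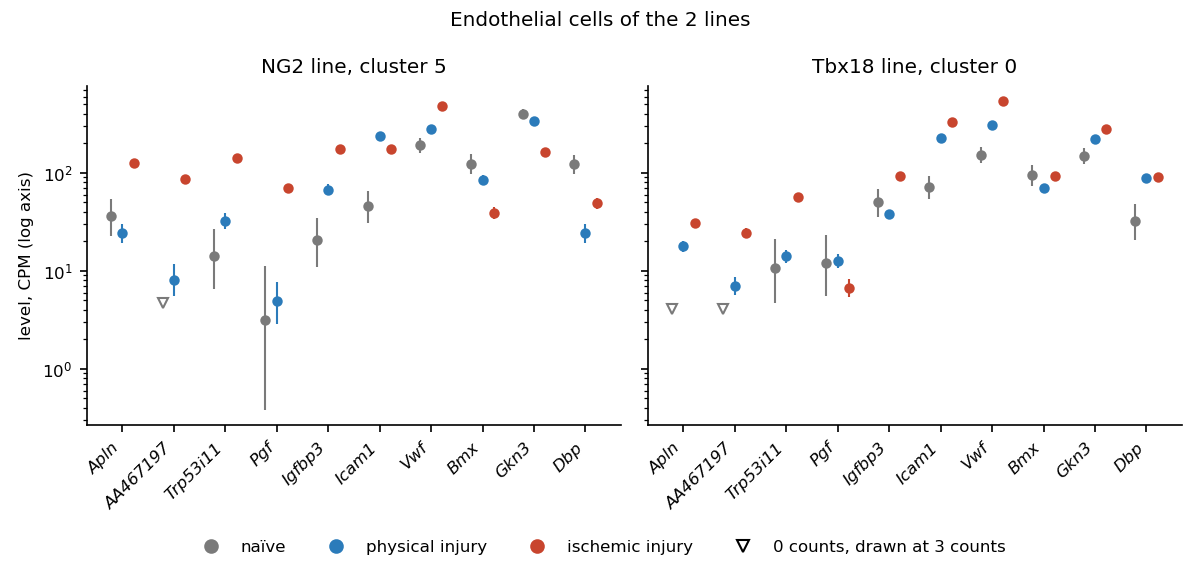
Level in CPM (log axis) of 10 genes in endothelial cells of the NG2 line (left) and the Tbx18 line (right), by library; bars are exact 95% Poisson intervals and open triangles are 0 counts, drawn at the floor of 3 counts. Apln reaches 126 CPM after ischemic injury on the left and 30.5 CPM on the right, and Bmx stands at 124, 84.3 and 38.8 CPM on the left and at 94.4, 70.3 and 92.8 CPM on the right.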

How the data were processed

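The authors deposited UMI counts for each gene in each cell, made with Cell Ranger (7.0.0 in the submitters' processing notes) and the mm10 genome; only cells that passed the authors' filters are in them. The library, the cluster number and the percent of mitochondrial UMIs of each cell come from the metadata the authors deposited from Seurat after integration. Libraries were made with 10x Genomics 3′ chemistry from papain-dissociated, sorted cells, and the sort decides which cells enter. All deposited cells of cluster 5 were kept, and no doublet caller was run.

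Counts were summed over cluster 5 cells of a library and given as CPM. Log2 ratios had a pseudocount of 1 CPM. A gene was compared at 50 CPM or more in the higher library and counted as higher or lower past 2-fold; mitochondrial genes, Gm42418 and AY036118 were left out. Named genes were the 10 largest ratios each way among compared genes found in at least 10% of cells of the higher library, and the 4 largest and the most abundant member of each list. Genes named outside this rule, such as Sele, Selp, Cdh5, Esm1, Plvap, Mki67, Ldha, Vegfa and Nos3, are list members chosen after their values were seen. The members, the lists and the split by Apln were chosen with earlier results of these data known. To compare shares of cells, UMIs were drawn at random down to 2000 a cell and shallower cells left out. The steps were tested on simulated data. Promoters came from RefSeq (GRCm38.p6). Analyses ran in R 4.3.3 (edgeR 4.0.16, for TMM factors alone) and in Python 3.11.15 with pandas 2.3.3, matplotlib 3.10.9, scipy 1.17.1 and numpy 2.4.6. Alternatives changed the scaling, pseudocount, minimum level, depth and cells kept. Values of a few list members are not reported here.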

Additional observations from a re-analysis of the deposited data

Results flagged for a closer look

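For 4 of the named genes, those that reached 50 CPM in the higher library of the contrast in each line, the 2 lines lay at least 2-fold from naïve in opposite directions under the same contrast. None of these differences between lines was tested. Dbp was lower than naïve after physical injury in NG2 endothelial cells (log2 ratio -2.30) and higher in Tbx18 ones (1.42), a difference of -3.71; after ischemic injury the ratios were -1.30 and 1.44, a difference of -2.74. Nr1d1 differed by -2.77 after physical injury (-1.66 and 1.10). Eln, which encodes elastin, differed by -2.67 after ischemic injury (-1.63 and 1.04), with 56.2% of its naïve NG2 UMIs in 1 cell. With NG2 cells thinned to 2000 UMIs its ratio in that line was -0.68, within the fold. Hsph1, a heat shock protein, differed by 3.48 after physical injury (1.68 and -1.80). The naïve Tbx18 cells are the shallow ones rich in mural RNA, and their part in these values was not tested.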

How the results depend on the processing

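Each condition is 1 pooled library, so no alternative replaces a replicate, and no paired analysis was possible because the labels give no replicate numbers. Depth limits the naïve cells most. Of 60 counts of genes past the fold under 10 alternatives, 41 were within 1.5 times the value given above. With at least 20 CPM the counts were 183 higher and 131 lower (physical against naïve), 197 and 171 (ischemic against naïve) and 44 and 54 (between injuries), and with no minimum level 1671 and 1117, 1676 and 1169, and 425 and 372; these admit lower genes by construction. Thinned to 2000 UMIs they were 206 and 142 (physical) and 151 and 149 (ischemic), from fewer UMIs. TMM scaling moved the median gene by 0.06, 0.12 and 0.05 on the log2 scale. With it 23 genes were lower after physical injury, as a mean over cells 43 were lower after ischemic injury, and without cells over 0.5% mural UMIs 43 were lower after ischemic than physical injury; the cause was not tested.

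The difference in endothelial share became 19.3, 19.1 and -0.175 points among endothelial and mural clusters (in the order physical minus naïve, ischemic minus naïve, ischemic minus physical). Without cells over 0.5% mural UMIs it was 11 and 8.8 points against naïve, and among cells with at most 5% mitochondrial UMIs 15 points for physical injury. Without cells over 1% hemoglobin UMIs, an alternative chosen after seeing the data, no difference in share and no count of genes moved past these limits.

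Of 1056 log2 ratios of named genes under the alternatives, 926 stayed within the counting interval of the value given above, 121 left it with the same sign and 9 changed sign; 80, of 39 genes, fell within 2-fold with the same sign. The cause was not tested. Without cells over 0.5% mural UMIs, Acta2 (-0.46) and Myh11 (-1.03) between the injuries and Spp1 after ischemic injury against naïve (-1.23) changed sign. Without hemoglobin-rich cells, so did Hba-a1 (-2.11 and -1.75) and Hba-a2 (-1.10 and -0.83) after physical and ischemic injury and Hbb-bt between the injuries (-0.35). Gm9946 did so when thinned (0.26).

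Of 763 medians of gene lists, 733 stayed within 0.25 of the value given for all cells. The 30 others follow, as ischemic against naïve log2 medians unless said. With TMM scaling they were 0.01 (caveolae) and 0.50 (basement membrane). As a mean over cells they were -0.72 (arterial), 0.66 (venous; 0.57 after physical injury), 1.82 (tip cell; 0.47 between the injuries), 0.29 (chemokines), -0.17 (immediate early) and -0.36 (lineage drivers). Thinned to 2000 UMIs they were 0.84 (venous), 1.68 (tip cell) and -0.48 (TGF-beta and BMP); 0.67 (venous), 0.56 (tip cell), -0.28 (shear response) and 0.89 (activation) after physical injury; and 0.18 (venous), 0.82 (tip cell), -0.01 (activation), -0.44 (chemokines), -0.11 (mitosis) and 0.15 (complement) between the injuries. Without cells over 0.5% mural UMIs they were -1.48 (arterial), 0.06 (chemokines), 0.45 (basement membrane) and 0.37 (endothelial-to-mesenchymal transition). In that setting they were also -0.04 (DNA replication, and -0.27 after physical injury) and, between the injuries, 1.43 (tip cell). Of 19 differences in the share of cells with a list, ischemic injury minus naïve, 18 stayed within the counting interval, and DNA replication became -3.44 points at 1000 UMIs, below 0 where it was above 0 at 2000.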
